A study of Mus musculus with 48 samples.

Results

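The genes described here are 34 genes of the postsynaptic density and of the ionotropic glutamate receptors, listed by symbol for their place at the synapse. Earlier results of these data were known when the list was made. They were 34 of the 24060 gene rows in the deposited count table. They comprise 4 membrane-associated guanylate kinase (MAGUK) scaffolds (Dlg1, Dlg2, Dlg3, Dlg4), 3 Shank scaffolds (Shank1, Shank2, Shank3), 3 Homer adaptors (Homer1, Homer2, Homer3) and 6 other scaffolds or signalling adaptors (Baiap2, Begain, Lrrc7, Iqsec2, Kalrn, Nrgn). The receptor side holds 4 NMDA receptor subunits (Grin1, Grin2a, Grin2b, Grin3a), 4 AMPA receptor subunits (Gria1 to Gria4), 2 kainate receptor subunits (Grik2, Grik5) and 3 AMPA receptor auxiliary subunits (Cacng2, Cacng3, Cacng8). Both main CaMKII genes (Camk2a, Camk2b) and 3 neuroligins (Nlgn1, Nlgn2, Nlgn3) complete the list. All 34 passed the filter on low counts in every comparison.

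The 48 libraries came from 24 adult mice of a strain labelled C57, with 4 replicates in each of 12 groups. In all of them a virus had placed an HA-tagged ribosomal protein (Rpl22-HA, the RiboTag) in striatal astrocytes 3 weeks before RNA was taken. Each replicate gave an immunoprecipitate (IP) library, RNA pulled down with the tagged astrocyte ribosomes, and an input library, taken from the cleared lysate, to which all striatal cells contribute. Of the 3 experiments, the first compared MPTP (20 mg/kg, 4 doses; a toxin used to kill dopamine neurons, labelled as given into the striatum) with vehicle. The second compared SAPAP3 knockout mice with wild-type littermates. The third compared hM4Di, an engineered Gi-coupled receptor in astrocytes, with control cargo, and all its mice were R6/2, a Huntington's disease model that carries a mutant huntingtin fragment. No label states if hM4Di was activated with a drug, or at what time. The IP and input libraries of MPTP replicate 2 name different animals, and the name of wild-type replicate 3 may join more than 1 mouse. Each experiment was its own sequencing project, so genotype, virus and project cannot be told apart between experiments.

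At an excitatory synapse, glutamate released by the presynaptic terminal opens AMPA and NMDA receptors, and in many cells kainate receptors, in the membrane of the receiving neuron. Beneath that membrane, MAGUK proteins such as PSD-95 (the product of Dlg4) hold the receptors, SAPAP proteins link the MAGUK layer to Shank proteins, and Homer proteins link Shank to metabotropic glutamate receptors and calcium stores. CaMKII is the kinase that calcium entering through NMDA receptors activates, and neuroligins reach across the cleft to presynaptic neurexins. In the striatum most of these synapses lie on medium spiny neurons, which receive cortical and thalamic glutamate input. Astrocytes are also known to express some of the same genes.

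Homer3 and Nrgn stood at opposite ends of the list in the values below, so the promoter windows of this pair are shown. RefSeq promoter windows (assembly GRCm38.p6) were found for 25 of the 34 genes, 41 windows in all, each 300 bases long and holding an annotated gene start. Capitals mark GC boxes, searched as GGGCGG on both strands, so that CCGCCC is the same box read from the other strand. The Homer3 window is chr8:70282749-70283048 on the plus strand and the Nrgn window is chr9:37552696-37552995 on the minus strand.
Homer3: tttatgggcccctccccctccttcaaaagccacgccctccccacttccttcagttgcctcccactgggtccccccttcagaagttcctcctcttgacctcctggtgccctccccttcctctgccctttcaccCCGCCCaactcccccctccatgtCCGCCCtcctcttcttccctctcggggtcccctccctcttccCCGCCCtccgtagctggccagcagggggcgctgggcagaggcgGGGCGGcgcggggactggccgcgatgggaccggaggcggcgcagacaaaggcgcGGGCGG
Nrgn: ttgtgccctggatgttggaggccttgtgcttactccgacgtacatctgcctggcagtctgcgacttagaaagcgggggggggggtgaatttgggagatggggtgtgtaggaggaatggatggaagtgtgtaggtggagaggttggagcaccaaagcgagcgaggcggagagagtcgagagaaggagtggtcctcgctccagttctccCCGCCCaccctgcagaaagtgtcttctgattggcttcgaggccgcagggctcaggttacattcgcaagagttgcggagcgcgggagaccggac
The Homer3 window held 2 GC boxes on the strand shown and 3 on the other, and the Nrgn window held 0 and 1. A GC box was present in 20 of the 41 windows of these genes (48.8%), beside 35.7% of all 32851 promoter windows of the same length. The cAMP response element TGACGTCA, also searched on both strands, was in 0 of the 41 windows, beside 1.79% of all windows. These matches describe the letters only.

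Library totals were 34316801 to 61456591 counted reads for IP and 21901847 to 38983930 for input. The labels were checked on 2 genes that are not in the list. Dlgap3, the gene of SAPAP3, had 50.5 to 87.1 CPM (a count scaled to a fixed library total, normalised within each experiment and fraction) in knockout IP libraries, against 152 to 209 CPM in wild-type IP libraries, and it fell by 1.40 on the log2 scale (edgeR adjusted p = 0.0283). Chrm4, the muscarinic receptor gene from which hM4Di was engineered, had 550 to 837 CPM in hM4Di IP libraries, against 36.6 to 63.9 CPM in control cargo IP libraries. All 15 astrocyte markers were more than 2-fold higher in IP than in input in each experiment, in every case past the test. Both libraries of wild-type replicate 1 stood apart: its input had a summed level of 7 cortical excitatory neuron markers of 85.2 CPM, against 754 to 927 CPM in the knockout input libraries and 625.6 to 785 CPM in the other wild-type ones, and its IP had 17.8 CPM, against 114 to 345 CPM in knockout and 131 to 236 CPM in the other wild-type IP libraries.

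In IP libraries of all 6 groups Camk2b, the beta subunit of CaMKII, had the highest mean FPKM (the count scaled to gene length and library total), from 112 ± 8.23 in hM4Di to 190 ± 36.3 in MPTP mice (SD, n = 4 each). Homer2, which tethers metabotropic receptors, had the lowest in all 6 groups, from 1.93 ± 0.275 FPKM in hM4Di to 2.77 ± 0.418 FPKM in knockout mice. Gria2, the AMPA subunit that sets calcium permeability, ranked 2 to 4, between 75.8 FPKM in knockout and 106 FPKM in control cargo IP libraries. In input libraries Camk2b led in the MPTP, hM4Di, vehicle and control cargo groups, and Nrgn (neurogranin, a calmodulin-binding protein of dendritic spines) led in knockout and wild-type mice. Nrgn averaged 242 ± 11.7 FPKM in MPTP, 255 ± 18.4 in knockout, 111 ± 5.35 in hM4Di, 253 ± 23.0 in vehicle, 252 ± 26.2 in wild-type and 108 ± 4.60 in control cargo input (SD, n = 4 each). Those input means of Nrgn therefore fell into 2 levels, with both R6/2 groups at the low one.

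Most of the 34 genes were lower in astrocyte IP RNA than in the input, and a single gene was more than 2-fold higher in all 3 experiments. The log2 difference of IP over input lay below 0 for 24 genes and above 0 for 3 genes in all 3 experiments. The share of all genes on the same side in all 3 experiments was not counted. Over the 34 genes the differences correlated between experiments at 0.81 to 0.96 (Pearson), so repeats between experiments are not independent. The median difference was -0.34, -0.60 and -0.47 in the MPTP, SAPAP3 and R6/2 experiments, beside -0.02, -0.001 and -0.02 over all genes tested. Counting as enriched or depleted a gene past a 2-fold difference with edgeR adjusted p under 0.05, 2 genes were enriched and 4 depleted in the MPTP experiment, where 12.5% of all genes tested were enriched and 14.0% depleted. The counts were 1 and 6 in the SAPAP3 experiment (11.9% and 13.0% of all genes) and 1 and 6 in the R6/2 experiment (11.3% and 12.3%). Fewer of the 34 genes were thus enriched than the background share, and about as many were depleted. Medium spiny neuron markers lay below 0 in all 14 measured genes in each experiment, with medians of -0.88, -0.58 and -0.79.

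Homer3, a Homer family member best known from cerebellar Purkinje cells, was the gene enriched in all 3 experiments. It rose by 1.61 ± 0.0445, 1.81 ± 0.0716 and 1.45 ± 0.0766 (log2, ± SE, edgeR adjusted p = 2.18e-16, 3.6e-13 and 1.3e-11). The SE and p-values of IP over input, here and below, come from fits without the mouse as a block. They thus ignore that IP and input share a mouse. In the R6/2 experiment Homer3 had 10.4, 10.4, 10.5 and 10.3 FPKM in hM4Di IP libraries and 7.87, 7.97, 7.47 and 6.64 FPKM in control cargo IP libraries. The inputs of the same mice had 3.98, 3.89, 3.36 and 4.12 FPKM with hM4Di and 3.90, 4.03, 3.15 and 4.01 FPKM with control cargo. Every IP library lay above every input library of that experiment.

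Grin3a, an NMDA receptor subunit that lowers calcium entry, was next, at 1.58 ± 0.0711, 0.62 ± 0.101 and 0.88 ± 0.0547, and passed the 2-fold mark in the MPTP experiment alone. In that experiment it had 8.89, 7.06, 6.28 and 7.07 FPKM in MPTP IP and 7.20, 7.61, 8.62 and 9.34 FPKM in vehicle IP libraries, against 2.94 to 3.32 FPKM in MPTP input and 2.87 to 2.97 FPKM in vehicle input. Nlgn3, a neuroligin also known from astrocytes and oligodendrocyte precursors, lay above 0 in all 3 experiments (0.43, 0.35 and 0.29), short of 2-fold. Grin1, the subunit shared by all NMDA receptors, was at 0.22, -0.09 and 0.13. Most interneuron markers moved the same way as Homer3 and Grin3a: 6 of 8 were enriched in each experiment, with medians of 2.01, 1.53 and 2.18. In the SAPAP3 experiment the wild-type means of Cck and Pvalb were lower in IP (23.6 and 28.3 CPM) than in input (90.7 and 42.5 CPM). Astrocyte markers were all enriched in each experiment, as given above. The part of either cell type in these values was not tested.

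Nrgn was the lowest gene in all 3 experiments, at -1.46 ± 0.0824, -1.46 ± 0.106 and -1.46 ± 0.0890 (edgeR adjusted p = 6.18e-12, 9.65e-10 and 9.4e-11). In the SAPAP3 experiment it had 115, 81.2, 53.5 and 75.5 FPKM in knockout IP and 81.6, 80.0, 74.6 and 75.2 FPKM in wild-type IP libraries, against 237 to 278 FPKM in knockout input and 230 to 284 FPKM in wild-type input. Dlg4 followed at -1.19 ± 0.0468, -1.20 ± 0.0834 and -1.22 ± 0.0600, and Cacng3, an AMPA receptor auxiliary subunit of forebrain neurons, at -1.07, -1.26 and -1.11. Nrgn, Dlg4 and Cacng3 were the 3 genes depleted in every experiment. Begain, a partner of PSD-95, was at -0.90, -1.07 and -1.16 and passed the 2-fold mark in the SAPAP3 and R6/2 experiments. Homer1 was depleted in the MPTP and SAPAP3 experiments, Shank1 in the SAPAP3 experiment, and Shank3 and Lrrc7 in the R6/2 experiment. A few genes, chosen after their values were seen, lay on different sides of 0: Shank1 was at 0.33, -1.14 and -0.72, Homer2 at 0.57, -0.74 and -0.38, and Camk2a at 0.02, -0.80 and -0.44 in the MPTP, SAPAP3 and R6/2 experiments. The differences between experiments were not tested.

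**Figure D1:**
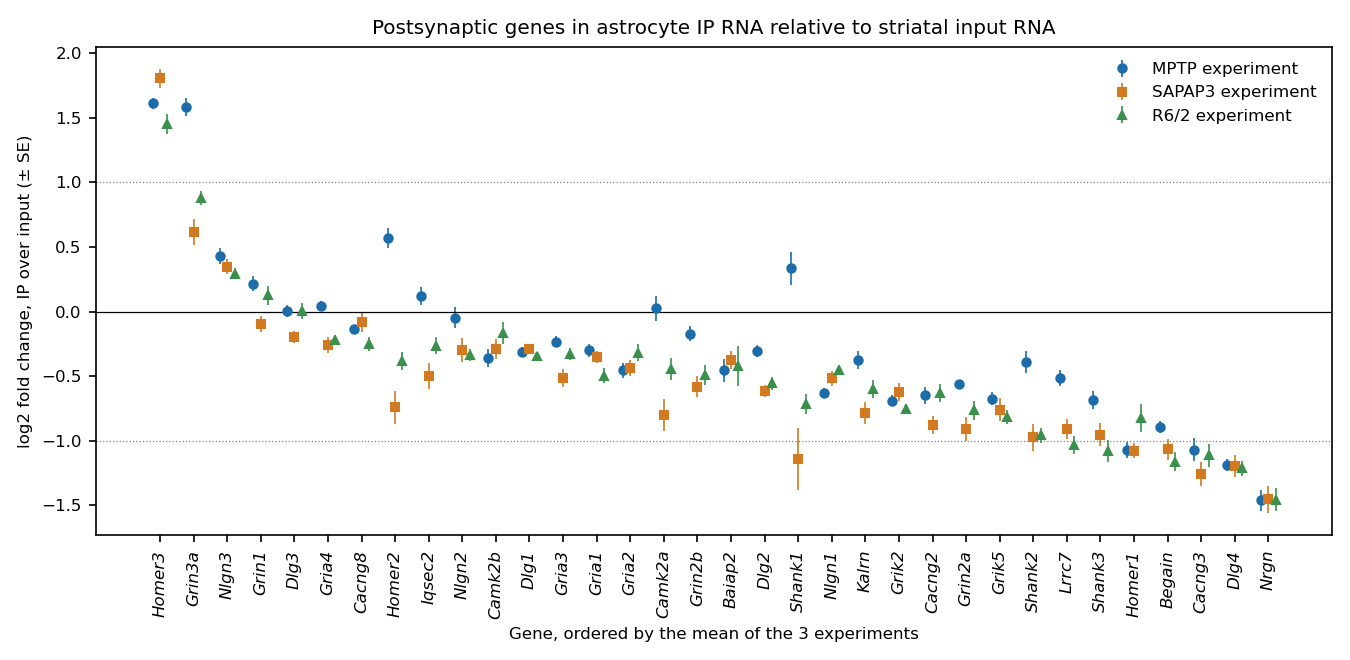
Log2 fold change of IP over input (vertical axis, ± SE) for the 34 genes, ordered by the mean of the 3 experiments; colours and shapes mark the experiments, 16 libraries each, and dotted lines mark 2-fold. Homer3 lies between 1.45 and 1.81 at the left end and Nrgn lies at -1.46 in all 3 experiments at the right end.

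Among other genes of glutamate receptors and the postsynaptic density, listed by function, 43 were in the table. Of these, 5 were enriched and 6 depleted in the MPTP experiment, 1 and 6 in the SAPAP3 experiment and 3 and 6 in the R6/2 experiment. Of those past the test in all 3 experiments, 2 are given here, chosen after their values were seen. Grin2c, the NMDA receptor subunit best known from cerebellum and astrocytes, was enriched in all 3 by 2.02, 1.82 and 1.94 (log2), and Cnih2, an AMPA receptor auxiliary subunit, was depleted in all 3 by -2.02, -1.57 and -1.73.

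In R6/2 mice, hM4Di in astrocytes went with lower levels of most of the 34 genes in IP RNA and with no called difference in input RNA. In IP, 18 genes fell and 1 rose (edgeR adjusted p under 0.05), and 32 of 34 lay below 0. Over all genes tested, 5.63% fell and 9.06% rose. The median log2 fold change was -0.25 for the 34 genes and 0.01 over all genes tested. The fallen genes covered most roles: 3 of 4 MAGUK scaffolds (Dlg2, Dlg3, Dlg4), 1 of 3 Shanks (Shank2), 3 of 6 other scaffolds or adaptors (Lrrc7, Kalrn, Nrgn), 3 of 4 NMDA subunits (Grin1, Grin2a, Grin2b), 2 of 4 AMPA subunits (Gria1, Gria2), both kainate subunits, 1 of 3 auxiliary subunits (Cacng8), Camk2a, and 2 of 3 neuroligins (Nlgn1, Nlgn3). In 20 genes every hM4Di library lay below every control cargo library, and in 1 every one lay above, beside 10.1% and 12.8% of all genes tested. In bulk RNA of this kind the sources of a fall in IP, such as fewer cells of a type or less RNA per cell, cannot be told apart.

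Cell type markers also moved in these IP libraries. Of 14 medium spiny neuron markers 9 fell, with a median of -0.49 and a summed level of 2041 to 2137 CPM with hM4Di, against 2399 to 3727 CPM with control cargo. Of 12 presynaptic genes 4 fell (median -0.19; sum 3815 to 4233 CPM against 4377 to 4995 CPM). All 10 oligodendrocyte markers rose (median 0.84), with sums of 5131 to 7479 CPM with hM4Di and 2893 to 4030 CPM with control cargo. Of 15 astrocyte markers 1 rose and 2 fell (median -0.11; sum 20420 to 21561 CPM against 24346 to 27392 CPM). The medium spiny neuron markers summed to 5065 to 5553 CPM with hM4Di and 4885 to 5751 CPM with control cargo in input. In input 0 markers of these lists passed, and no marker of these lists was at 0 in any library. Their part in the changes of the postsynaptic genes was not tested.

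Taking the 8 genes of smallest p, Homer3 was the gene that rose. It had 24.99, 24.9, 25.6 and 24.7 CPM in hM4Di IP libraries and 19.4, 19.5, 18.4 and 16.8 CPM in control cargo IP libraries, and rose by 0.44 ± 0.0580 (log2 ± SE; edgeR adjusted p = 0.00422). The groups did not overlap, and the hM4Di libraries lay within 1 CPM of each other. Homer3 spans positions 70282827 to 70294361 of chromosome 8 on the plus strand (GRCm38).

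Grin2b (chromosome 6, 135713233 to 136173511, minus strand) encodes the NMDA receptor subunit with slow kinetics. It had 257, 254, 243 and 225 CPM in hM4Di IP libraries and 354, 295, 308 and 359 CPM in control cargo IP libraries, and fell by 0.43 on the log2 scale (SE 0.0736, edgeR adjusted p = 0.00976). Its input levels were 422 to 523 CPM with hM4Di and 435 to 485 CPM with control cargo, which overlap.

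Among the 8 were also 2 MAGUK genes. Dlg2 (PSD-93; chromosome 7, 90476672 to 92449247) had 283, 269, 278 and 279 CPM with hM4Di and 355, 321, 325 and 378 CPM with control cargo in IP, a log2 fold change of -0.31 ± 0.0557 (edgeR adjusted p = 0.0106). Dlg3 (SAP102; chromosome X, 100767722 to 100818410) had 188, 184, 193 and 190 CPM with hM4Di and 235, 215, 235 and 276 CPM with control cargo, a log2 fold change of -0.35 ± 0.0689 (edgeR adjusted p = 0.0153). In both, control cargo replicate 4 was the highest library and the groups did not overlap.

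Kalrn, a guanine nucleotide exchange factor that shapes spines (chromosome 16, 33969073 to 34573532), had 217, 228, 206 and 218 CPM with hM4Di and 285, 263, 296 and 354 CPM with control cargo, a log2 fold change of -0.46 ± 0.0837 (edgeR adjusted p = 0.0114). Nrgn (chromosome 9, 37544492 to 37552904) had 38.4, 34.9, 39.9 and 33.9 CPM with hM4Di and 57.4, 42.2, 51.4 and 56.9 CPM with control cargo, the largest fall of the called genes at -0.50 ± 0.101 (edgeR adjusted p = 0.016). The lowest control cargo library of Nrgn, replicate 2, lay close above the highest hM4Di one. Lrrc7, the scaffold densin-180 that binds CaMKII (chromosome 3, 158082891 to 158562221), had 152, 156, 147 and 157 CPM with hM4Di and 210, 174, 188 and 229 CPM with control cargo, a log2 fold change of -0.38 ± 0.0791 (edgeR adjusted p = 0.0167). Camk2a, the alpha subunit of CaMKII, had 329, 292, 308 and 306 CPM with hM4Di and 432, 349, 408 and 500 CPM with control cargo, a log2 fold change of -0.45 ± 0.0969 (edgeR adjusted p = 0.0191). In all these genes the hM4Di libraries were the tighter group.

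**Figure D2:**
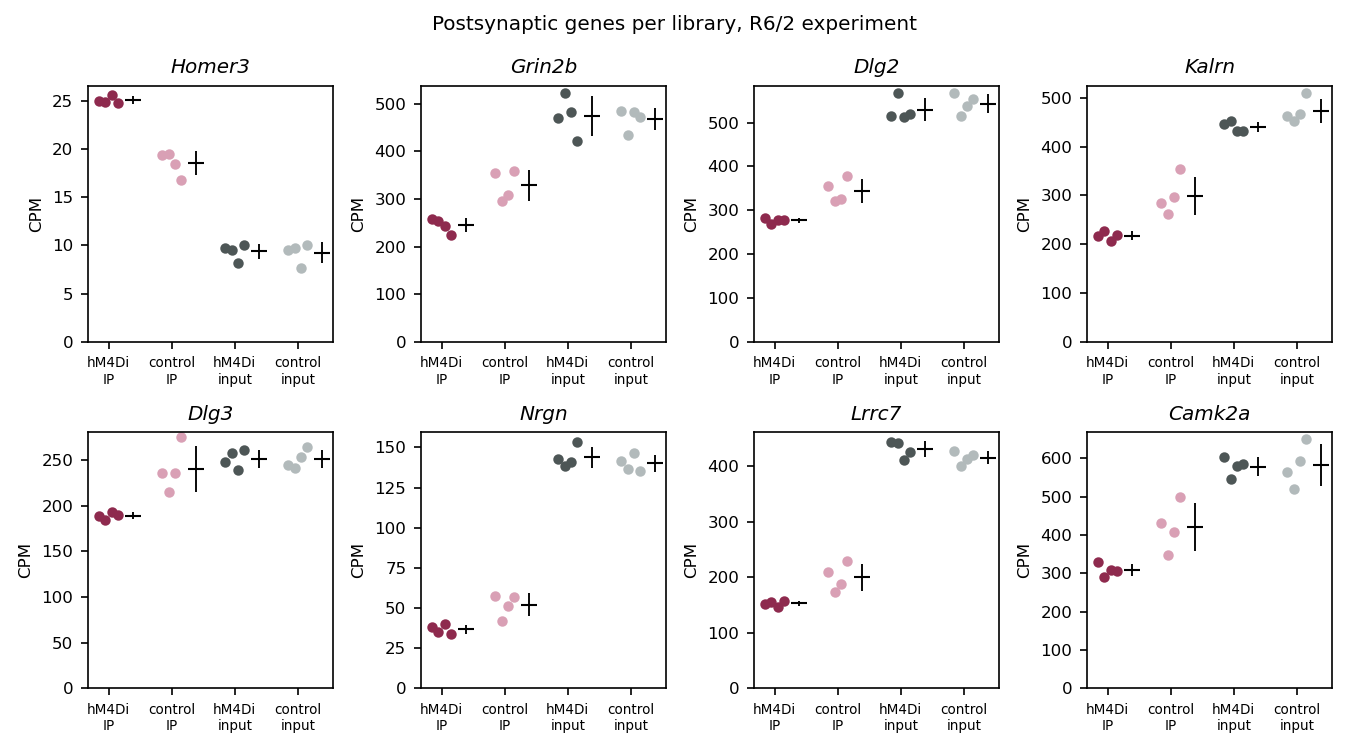
CPM (vertical axes, from 0) per library of the 8 genes of smallest p in the R6/2 experiment; points are libraries, and the bar beside each group is the mean with its SD (n = 4). In IP the hM4Di libraries of Homer3 lie between 24.7 and 25.6, all above control cargo, and those of the other 7 genes lie below control cargo, while the input groups overlap in all but Kalrn.

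The log2 fold changes of the remaining called genes ran from -0.16 in Grik2, a kainate subunit, to -0.39 in Grin1. Of the genes that did not pass, Baiap2, an actin-regulating scaffold, had the largest difference, -0.58 ± 0.219 (edgeR adjusted p = 0.106). It had 154, 144, 175 and 155 CPM with hM4Di and 211, 170, 188 and 369 CPM with control cargo. Control cargo replicate 4 was thus far above the others, and it also had the highest medium spiny neuron marker sum, 3727 CPM. That library was the highest control cargo IP library in most of the 34 genes, though not in Nrgn, and the lowest in Homer3. For example, it had 993 CPM of Gria2 (755 to 831 CPM in the others) and 374 CPM of Grin1 (279 to 313 CPM). Without it the median of the 34 genes was -0.21, with 32 below 0. Shank3, a scaffold of striatal synapses, and Camk2b were at -0.35 and -0.33 (edgeR adjusted p = 0.0784 and 0.0773). Gria4 was at 0.03 and Dlg1 at -0.07, and neither passed.

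Whether the IP difference departed from the input difference was tested as an interaction. The interaction was below 0 for 33 of the 34 genes, with a median of -0.27 beside -0.01 over all genes tested. It passed for 8 genes, all lower in IP relative to input: Dlg2, Dlg3, Lrrc7, Nrgn, Grin2b, Gria1, Gria2 and Nlgn3, with values of -0.26 to -0.55 (edgeR adjusted p = 0.0191 to 0.0492). Over all genes tested, 1.20% were lower and 1.90% higher. With the mouse as a block, since IP and input come from the same mouse, 24 were lower and 1, Homer3, higher (beside 9.03% and 8.36% of all genes tested); Homer3 was at 0.41 in both fits, with edgeR adjusted p = 0.067 without the block and 0.0205 with it. The unblocked interaction passed for 0 genes without hM4Di replicate 2 or without control cargo replicate 1. It passed for 1, 2 and 3 without hM4Di replicates 4, 1 and 3, and for 4 without control cargo replicate 3. Shares of all genes are not given for these fits.

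In input, the 34 genes had a median of 0.01, between -0.16 and 0.10, and 0 of 34 passed by edgeR, DESeq2 and limma-voom (0.0198% of all genes rose and 0% fell by edgeR); 1 of 34 (2.94%) had an unadjusted p under 0.05, beside 7.67% of all genes tested. The smallest p belonged to Kalrn (-0.10 ± 0.0406, edgeR adjusted p = 0.614), with 447, 452, 432 and 433 CPM with hM4Di and 463, 453, 467 and 509 CPM with control cargo. Its groups did not overlap, beside 1.89% of all genes lower and 2.68% higher without overlap. Next came Nlgn3, with 132, 130, 127 and 129 CPM with hM4Di and 127, 118, 127 and 119 CPM with control cargo (0.07; edgeR adjusted p = 0.678). Camk2b had 708, 687, 728 and 709 CPM with hM4Di and 677, 594, 661 and 706 CPM with control cargo (0.10; edgeR adjusted p = 0.681). Both pairs of groups overlapped.

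The number of genes called in IP depended on which libraries were used. It was 19 with all 8 libraries, 8 without hM4Di replicate 2, 11 without hM4Di replicate 3, 9 without hM4Di replicate 4 and 6 without control cargo replicate 1. Without hM4Di replicates 2 and 3 together it was 1, Homer3, while the median of the 34 genes was -0.27. Homer3, Grin2b, Dlg2, Kalrn, Dlg3 and Nrgn were called in each of the 8 fits that left out 1 library, and the other 13 called genes were not called in at least 1 of them. In each of those fits 32 of 34 genes lay below 0. Shares of all genes called are not given for the fits with libraries left out. Whether calls were lost in the same measure across all genes is therefore not shown here.

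**Figure D3:**
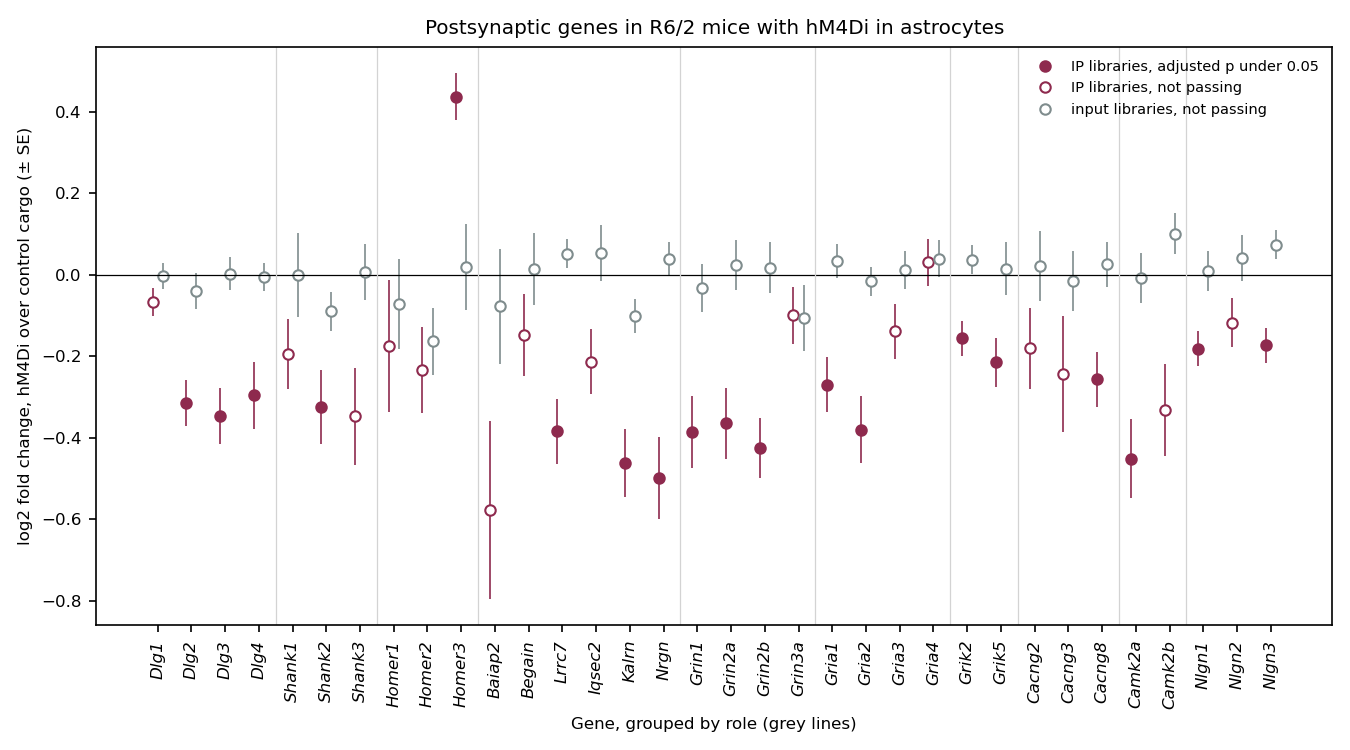
Log2 fold change of hM4Di over control cargo in R6/2 mice (vertical axis, ± SE, n = 4 each) for the 34 genes grouped by role; red marks IP, grey marks input, and filled points passed at edgeR adjusted p under 0.05. In IP 32 of 34 points lie below 0 and Homer3 lies at 0.44, while input points lie between -0.16 and 0.10.

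Of the 43 other postsynaptic and receptor genes, 15 fell and 0 rose in hM4Di IP libraries, with a median of -0.20. The smallest p belonged to the AMPA receptor auxiliary genes Shisa9 (-0.34; edgeR adjusted p = 0.00499) and Shisa7 (-0.36; 0.0184), the scaffold Tanc2 (-0.32; 0.00538) and the kainate receptor auxiliary gene Neto1 (-0.34; 0.0182). The interaction passed for Shisa9 (-0.37) and Tanc2 (-0.28).

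In mice given MPTP, a treatment meant to remove dopamine input to the striatum, none of the 34 genes passed in either fraction. By edgeR 0 of 34 passed in IP and 0 in input, beside 0% of all genes tested in both, and DESeq2 and limma-voom also gave 0. In IP 1 gene (2.94%) had an unadjusted p under 0.05, beside 11.2% of all genes tested, and the median was 0.03. In input 11 did (32.4%, beside 8.26% of all genes tested), of which 10 were lower, the median was -0.08 beside 0.01 over all genes, and 26 of 34 lay below 0. Medium spiny neuron markers in input had a median of -0.07, with 13 of 14 below 0 and 0 called.

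The 3 genes of smallest p in input were Cacng2, Nlgn2 and Nlgn1. Cacng2 (stargazin, which brings AMPA receptors to the synapse) had 42.1, 42.9, 39.7 and 38.6 CPM in MPTP input and 45.2, 44.3, 46.3 and 47.3 CPM in vehicle input, a log2 fold change of -0.17 ± 0.0477 (edgeR adjusted p = 0.512). Nlgn2, the neuroligin of inhibitory synapses, had 128, 131, 115 and 102 CPM in MPTP and 142, 133, 141 and 147 CPM in vehicle input (-0.24 ± 0.0704, edgeR adjusted p = 0.512). Nlgn1, the neuroligin of excitatory synapses, had 219, 222, 210 and 215 CPM in MPTP and 232, 227, 238 and 240 CPM in vehicle input (-0.11 ± 0.0359, edgeR adjusted p = 0.512). These were the 3 genes of the list whose groups did not overlap in input, all lower, beside 2.62% of all genes lower and 1.66% higher. NMDA subunits Grin1, Grin2a and Grin2b were at -0.16, -0.13 and -0.14 and Camk2a at -0.23, and none passed.

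In IP the smallest p belonged to Baiap2, Homer2 and Kalrn. Baiap2 had 246, 387, 430 and 359 CPM in MPTP and 288, 265, 305 and 269 CPM in vehicle IP libraries (0.34 ± 0.143, edgeR adjusted p = 0.416); MPTP replicate 1 lay below all vehicle libraries and the other 3 MPTP libraries above them. Without MPTP replicate 1 it was at 0.48 (edgeR adjusted p = 0.0555), and over the alternatives the adjusted p was 0.0555 to 0.703. Homer2 had 26.1, 28.8, 22.5 and 24.0 CPM in MPTP and 28.9, 24.5, 31.7 and 33.3 CPM in vehicle IP libraries (-0.22). Kalrn had 266, 382, 418 and 377 CPM in MPTP and 315, 288, 320 and 312 CPM in vehicle IP libraries (0.23), again with MPTP replicate 1 lowest. The groups overlapped in all 34 genes, beside 4.67% of all genes that were lower and 1.98% that were higher without overlap. In the IP of MPTP replicate 1 the medium spiny neuron marker sum was 4621 CPM, against 5612 to 7678 CPM in the other MPTP libraries and 5510 to 6020 CPM with vehicle, and the part of those cells in the Baiap2 values was not tested.

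SAPAP3 is itself a postsynaptic scaffold that joins PSD-95 to Shank, and none of the 34 genes passed in the knockout in either fraction. By edgeR 0 of 34 passed in IP (beside 0.00658% of all genes higher and 0.0197% lower) and 0 in input (0% and 0.00641%), and DESeq2 and limma-voom also gave 0. At an unadjusted p under 0.05 there were 2 genes in IP (5.88%, beside 2.63% of all genes tested) and 1 in input (2.94%, beside 5.57%). The medians were -0.01 in IP, or 0.03 without wild-type replicate 1, and 0.05 in input. In IP the groups overlapped in all 34 genes, beside 0.849% of all genes that were higher and 0.697% that were lower without overlap.

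Shank1, the most neuron-restricted Shank, had 93.0, 84.4, 29.4 and 39.5 CPM in knockout IP and 33.4, 42.6, 37.8 and 43.5 CPM in wild-type IP libraries (0.65 ± 0.318, edgeR adjusted p = 0.999). In input it had 170, 220, 115 and 106 CPM in knockout and 52.2, 125, 108 and 135 CPM in wild-type libraries (0.54 ± 0.303, edgeR adjusted p = 0.735). Knockout replicates 1 and 2 were high in both fractions and replicates 3 and 4 lay among or near the wild types. In IP the cortical marker sums moved with this, at 345, 309, 114 and 217 CPM in knockout and 17.8, 236, 131 and 181 CPM in wild-type libraries, and the presynaptic sums were 5864, 5248, 4629 and 4969 CPM in knockout and 4792 to 4973 CPM in wild-type libraries. In input the knockout cortical sums were 927, 754, 865 and 836.5 CPM. Among these libraries replicate 2 had the most Shank1 and the lowest cortical sum. The wild-type input sums were 85.2, 785, 625.6 and 697 CPM, and replicate 1 was lowest in both the sum and Shank1. Presynaptic input sums were 8698, 8503, 8889 and 8477 CPM in knockout and 5004, 7968, 8133 and 8026 CPM in wild-type libraries. The part of these cells in the Shank1 values was not tested. Without wild-type replicate 1, the input difference was 0.32 and the IP difference 0.58.

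Shank2 had 48.2, 46.3, 33.3 and 50.9 CPM in knockout IP and 32.5, 33.4, 43.6 and 32.8 CPM in wild-type IP libraries (0.33 ± 0.140, edgeR adjusted p = 0.999). Its input values were 94.2, 118, 95.4 and 93.7 CPM in knockout and 61.6, 82.5, 95.1 and 92.6 CPM in wild-type libraries, a log2 difference of 0.27, or 0.15 without wild-type replicate 1. Homer2 had 37.2, 32.1, 26.7 and 28.5 CPM in knockout and 22.7, 23.7, 26.3 and 28.0 CPM in wild-type IP libraries (0.31 ± 0.113, edgeR adjusted p = 0.999), or 0.26 without wild-type replicate 1. In input Homer2 was at 0.38, and at 0.18 without that replicate, whose 25.6 CPM were far below the 51.6 to 56.7 CPM of the other wild types. Grin3a had 59.8, 52.8, 47.9 and 55.1 CPM in knockout and 30.3, 38.8, 43.8 and 53.3 CPM in wild-type input libraries (0.37 ± 0.148, edgeR adjusted p = 0.735), or 0.25 without wild-type replicate 1. Camk2a in input had 1132, 1336, 1034 and 889 CPM in knockout and 721, 1033, 965 and 989 CPM in wild-type libraries (0.24, or 0.14 without wild-type replicate 1). Grik2, a kainate subunit, had 161, 176, 151 and 154 CPM in knockout and 230, 167, 183 and 167 CPM in wild-type input libraries (-0.22, or -0.10 without wild-type replicate 1). In these input values wild-type replicate 1 was the lowest or, for Grik2, the highest of its group.

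The cell type markers set that library apart in the same way. Its 14 medium spiny neuron markers summed to 6454 CPM in IP, against 3543 to 4843 CPM in knockout and 3991 to 5067 CPM in the other wild-type IP libraries. They summed to 12072 CPM in input, against 6605 to 7141 CPM in knockout and 6880 to 7943 CPM in the other wild-type libraries, and its presynaptic genes to 5004 CPM, against 8477 to 8889 CPM in knockout and 7968 to 8133 CPM in the other wild types. With it the cortical marker list had a median of 0.56 in input (7 of 7 above 0, 0 called) and the medium spiny neuron list a median of -0.29 (0 of 14 above 0, 0 called). The part of cortical tissue in the input values of the 34 genes was not tested. Input groups that did not overlap were those of Dlg3 and Gria3, both with higher knockout values (238 ± 4.00 against 220 ± 16.9 CPM and 351 ± 2.98 against 314 ± 37.3 CPM; SD, n = 4 each), beside 2.41% of all genes higher and 1.62% lower. Neither passed (edgeR adjusted p = 0.735 for both). Wild-type replicate 1 was the lowest library of both, at 196 CPM of Dlg3 and 260 CPM of Gria3. The other wild types had 217.5 to 233.6 CPM of Dlg3 and 324.6 to 344.8 CPM of Gria3. The lowest knockout libraries lay close above these, at 234.3 and 346.8 CPM.

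**Figure D4:**
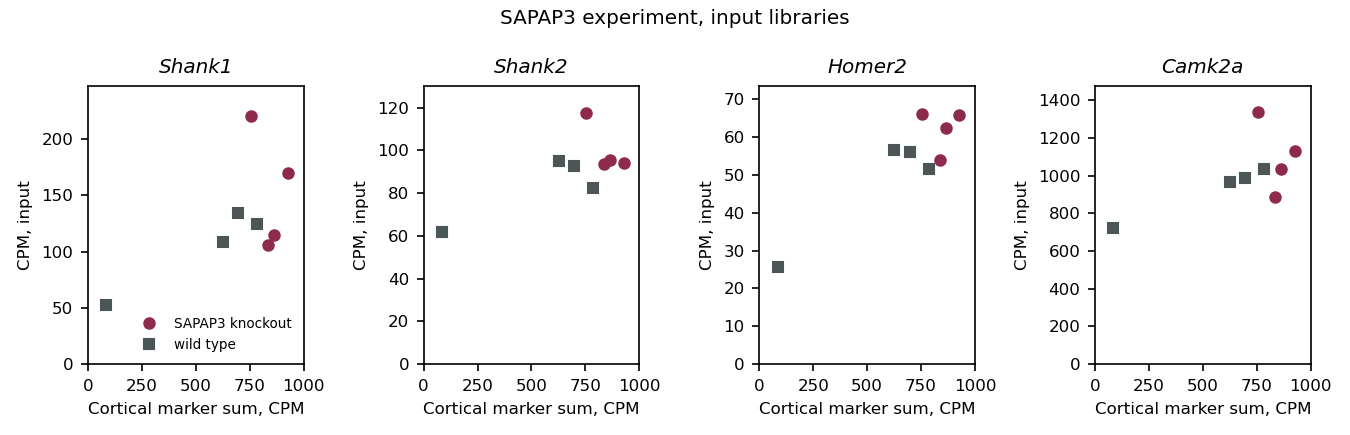
CPM of 4 genes in input libraries of the SAPAP3 experiment (vertical axes, from 0) against the summed CPM of 7 cortical excitatory neuron markers in the same library (horizontal axes); circles are knockout and squares wild-type libraries, 4 each. Wild-type replicate 1 stands at the left at 85.2 CPM of cortical markers and is the lowest library for all 4 genes.

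The interaction of fraction and condition passed for 0 of 34 genes in the MPTP and in the SAPAP3 experiment by edgeR, beside 0% of all genes tested in both; 4 (11.8%) and 0 genes had an unadjusted p under 0.05, beside 7.98% and 1.26% of all genes tested, and DESeq2 and limma-voom gave 0. Of the other postsynaptic and receptor genes, 0 passed in either experiment by edgeR in IP (43 tested), input (42 tested) or the interaction (43 tested).

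The control groups of the experiments differed in the level of several of the 34 genes, given here as values with no test, since experiment, genotype and sequencing project cannot be told apart. In input, every control cargo library of R6/2 mice lay below every vehicle and wild-type library in 8 of the 34 genes, Dlg4, Homer1, Nrgn, Gria3, Grik2, Cacng2, Cacng3 and Camk2b, and above them in 4, Dlg3, Shank2, Begain and Cacng8. Over all genes these shares were 10.9% and 27.7%. Nrgn had 102 to 113 FPKM in control cargo, 228 to 279 FPKM in vehicle and 230 to 284 FPKM in wild-type input, and Dlg4 had 113 to 119 FPKM in control cargo, 150 to 170 FPKM in vehicle and 156 to 170 FPKM in wild-type input. In IP the lower genes were Dlg4, Homer3, Nrgn and Cacng3 and the higher ones Dlg3 and Gria2 (beside 9.73% and 21.6% of all genes). In IP the count of lower genes, 4 of 34, was close to the share of all genes. Dlg4, Nrgn and Cacng3 were low in both fractions, and the share of all genes low in both was not counted. Shank1 varied most among the experiments, with 5.98 to 8.01 FPKM in control cargo, 7.10 to 17.9 FPKM in wild-type and 2.53 to 2.98 FPKM in vehicle input. The cortical marker sum in these input libraries was 37.3 to 68.4, 85.2 to 785 and 39.4 to 58.8 CPM, and its part in the Shank1 values was not tested.

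**Figure D5:**
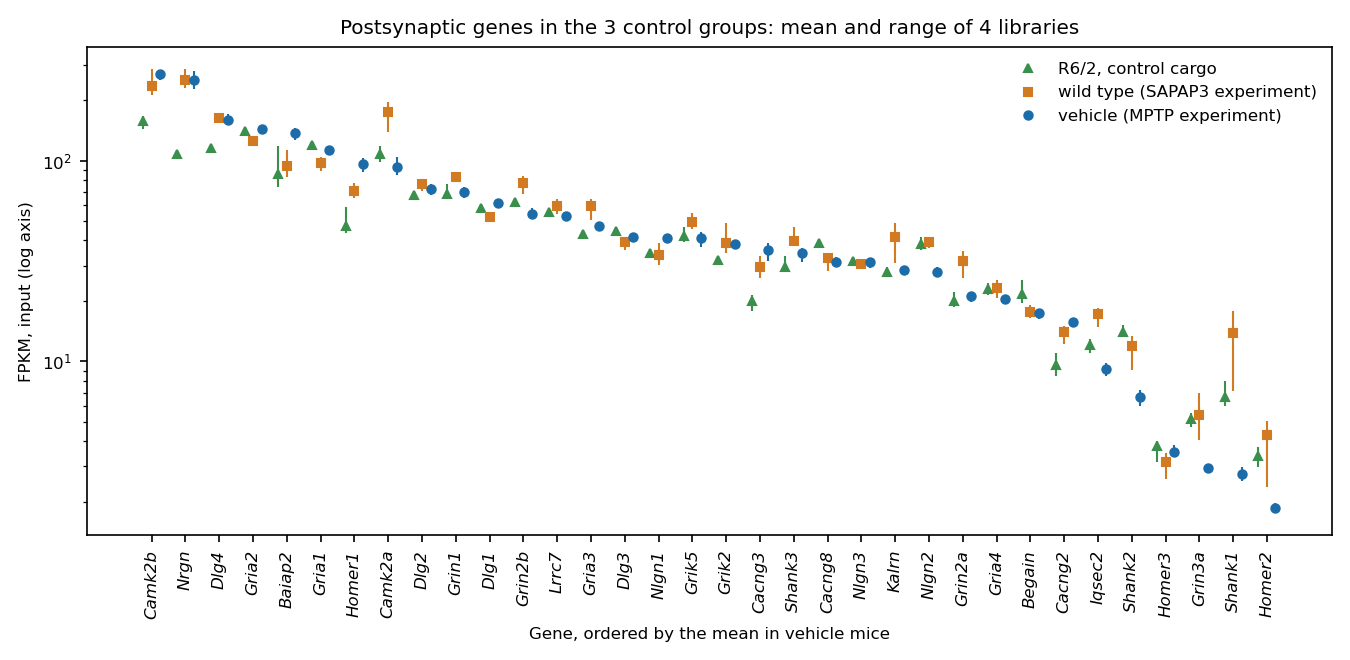
FPKM in input libraries (vertical log axis) of the 34 genes in the 3 control groups, ordered by the mean in vehicle mice; symbols are means and bars the range of 4 libraries. Nrgn, Dlg4 and Cacng3 lie lower in R6/2 control cargo mice, and Shank1 spans 2.53 FPKM in vehicle to 17.9 FPKM in wild-type mice.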

How the data were processed

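RNA sequencing of IP and input RNA of mouse striatum was analysed in 48 libraries, grouped by the labels. Per the submitters' processing notes, the aligner was STAR, the genome mm10 and the counter HTSeq; versions and gene annotation are not given in the sources used here. Whole read counts per gene symbol were deposited in 1 table. The deposited FPKM values equalled the counts over a single length for each gene and the library's column sum, by a check of the 2 tables. Library kits were stranded and ribosomal RNA-depleting, per the labels.

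Counts were tested in R 4.3.3 with edgeR 4.0.16 (filterByExpr, minimum count 10; TMM; quasi-likelihood F test) with Benjamini-Hochberg adjustment over all genes tested, with a threshold of 0.05; IP against input also needed a 2-fold difference. Standard errors follow from the F statistic. CPM are TMM-normalised. With 4 against 4 libraries, the small number of libraries limits the precision. The procedure was also run on simulated counts with the same spread for every gene. Its performance at the spread of these libraries was not tested. The 34 genes and the other lists were chosen with earlier results of these data known. Values in every library are given for up to 8 called genes per comparison by smallest p, or otherwise for the 3 of smallest p; for IP over input the 4 highest and 4 lowest genes by mean log2 fold change are named, and of the other postsynaptic genes up to 4 by smallest p; a further few were chosen after their values were seen.

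Alternatives were relative log expression scaling, DESeq2 1.42.0, limma-voom (limma 3.58.1), limma-trend on log2(FPKM + 1), genes kept from 1 read, all 16 libraries of an experiment in 1 fit, the replicate number or the mouse as a block, and libraries left out. IP and input of 1 replicate come from the same mouse in the titles, except in MPTP replicate 2; their deviations from the group means correlated at 0.387 to 0.636 in the R6/2, 0.249 to 0.517 in the SAPAP3 and 0.0638 to 0.377 in the MPTP experiment. Coordinates are from GENCODE for GRCm38, the assembly also called mm10. Figures were drawn with matplotlib 3.10.9.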

Additional observations from a re-analysis of the deposited data

Results flagged for a closer look

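In 6 of the 90 groups of 4 examined, those of 21 genes whose level in a group is given above, 1 library stood apart from the other 3. Shank2 had 43.6 CPM in wild-type IP replicate 3, against 32.5 to 33.4 CPM in the others, and 118 CPM in knockout input replicate 2, against 93.7 to 95.4 CPM. Homer2 had 25.6 CPM in wild-type input replicate 1, against 51.6 to 56.7 CPM. Dlg4 had 536 CPM in MPTP input replicate 2, against 497 to 501 CPM. Camk2b had 655 CPM in vehicle IP replicate 4, against 719 to 729 CPM, and Grin3a had 22.5 CPM in vehicle input replicate 3, against 22.9 CPM in each of the others. The rule used, Dixon's test at its 95% critical value, marks about 1 in 20 groups by chance.

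In R6/2 mice, 8 genes were marked because the hM4Di difference in IP departed from that in input by the interaction test: Dlg2 (-0.29), Dlg3 (-0.36), Lrrc7 (-0.45), Nrgn (-0.55), Grin2b (-0.45), Gria1 (-0.31), Gria2 (-0.37) and Nlgn3 (-0.26), as the log2 IP difference minus the log2 input difference.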

How the results depend on the processing

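None of the 62 single-gene values recomputed under the alternatives changed sign; values close to 0 outside these did, and in the MPTP experiment 8 to 10 of the 34 genes lay above 0 in IP over input. In IP over input for the R6/2 experiment, Lrrc7 no longer reached 2-fold without hM4Di replicate 1 (-0.99). For hM4Di against control cargo in IP, 19 genes passed; leaving out 1 library gave 6 to 20, and leaving out hM4Di replicates 2 and 3 together gave 1. The other settings gave 13 to 22: 19 with relative log expression scaling, limma-voom and no filter, 21 with DESeq2, 14 with limma-trend on log2(FPKM + 1), 22 with all 16 libraries in 1 fit and 13 with the replicate number as a block. For the hM4Di interaction, 8 genes passed. DESeq2 gave 18, limma-voom 5, no filter beyond 1 read 5 and the mouse as a block 25, and leaving out 1 library gave 0 to 11. Apart from the mouse as a block, shares of all genes called are not given for these alternatives. The counts of the MPTP and SAPAP3 comparisons, of their interactions and of hM4Di input stayed at 0 in every setting, and those of IP over input stayed within 1.5 times.

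For perturbed against control, replicate numbers are shared, but the labels name no pairing by number. Deviations of same-numbered libraries correlated between -0.352 and 0.393. The same number was the best match in SAPAP3 IP 2 and 3 (0.275 and 0.294) and input 3 (0.393), and in R6/2 IP 2 and 3 (0.0828 and 0.1). In the other pairs it was not. The block left the counts of the MPTP and SAPAP3 comparisons at 0. The cause of these changes was not tested.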
